A study of Bos taurus with 30 samples.

Results

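The chemokines that call mononuclear cells (monocytes, macrophages, dendritic cells and lymphocytes) into tissue were followed in endometrial cells brushed from dairy cows at 7 days postpartum (DPP). The members were 10 gene names, CCL2, CCL3, CCL4, CCL5, CCL8, CCL20, CXCL10, CXCL12, CXCL16 and the receptor CCR1, matched exactly to the gene names in the deposited tables. Of these names, 6 had an entry among the 10476 genes of the series: CCL2 (ENSBTAG00000037811), CCL5 (ENSBTAG00000007191), CCL8 (ENSBTAG00000014113), CCL20 (ENSBTAG00000021326), CXCL10 (ENSBTAG00000001725) and CXCL16 (ENSBTAG00000031998). CCL3, CCL4, CXCL12 and CCR1 were not analysed here. The animals were mixed-parity Holstein-Friesian cows of 1 commercial spring-calving farm, and each library came from 1 cow. Disease was diagnosed at 21 DPP, 2 weeks after the brush, so every group is named by what followed. PMN are polymorphonuclear cells, mostly neutrophils, counted on a smear from a second brush, and CYTO is cytological endometritis, called from a high PMN share at 21 DPP. PVD is purulent vaginal discharge, called from the vaginal mucus score at 21 DPP.

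The 27 cows of the study's set formed 6 groups. Cows which remained healthy had either low PMN (n = 5) or high PMN (n = 5) at 7 DPP, on either side of a PMN share of 18%. Cows which developed CYTO were likewise divided into low PMN (n = 5) and high PMN (n = 4). Cows which developed PVD had PVD alone (n = 4) or PVD with CYTO (n = 4), and all 8 had high PMN at 7 DPP. A further 3 libraries came from cows that the study set aside for their mucus score at 7 DPP, and they are given separately. Single cows are named as in the labels, by the outcome at 21 DPP (Sub-clinical for CYTO, Clinical for PVD) and the number of the cow. The labels name no experimental infection or treatment. A brush takes a mixture of surface epithelium, stroma and immune cells, so a value is the average of an unsorted sample.

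Chemokines are small secreted proteins that leukocytes follow along a gradient through receptors on their surface. In people and mice, CCL2 draws monocytes through CCR2, and CCL8 is a close relative that is bound by several CC receptors. CCL5 draws T cells, monocytes and eosinophils through several CC receptors, CCR1 among them. CCL20 is the ligand of CCR6, which is carried by IL-17-producing T cells, B cells and immature dendritic cells, and it is made by epithelium and neutrophils exposed to bacterial products and IL-1. CXCL10 is induced by interferon and draws activated T and NK cells through CXCR3, while CXCL16 is held on the membrane, is shed by proteases and binds CXCR6. In the uterus after calving, such signals belong to the normal clearance of bacteria and tissue debris.

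On the ARS-UCD2.0 annotation, which is a newer assembly than the UMD3.1 build used for the counts, CCL8, CCL11 and CCL2 lie side by side on chromosome 19. CCL5 lies next to CCL16 on the same chromosome, and CXCL10 lies between ART3 and CXCL11 on chromosome 6, in the cluster that also holds CXCL9. CCL20 stands alone among chemokine genes on chromosome 2. CCL2 and CCL8 are related in sequence, and only reads that mapped to a single place were counted, so reads lost to shared stretches could lower either gene.

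The libraries of the 27 cows held 11922966 to 39202083 counted reads, and levels are given as CPM, the reads of a gene scaled to the library total, where 1 read stood for 0.0255 to 0.0839 CPM. All 8 epithelial markers listed for the check of the tissue were present, with summed levels of 379 to 4866 CPM per cow, and all 8 stromal markers were present, with sums of 111 to 42321 CPM. Macrophage and monocyte markers (11 of 12 present) summed to 222 to 6684 CPM and neutrophil markers (9 of 12 present) to 118 to 26853 CPM, and no listed marker with an entry was at 0 in all cows of a group. T and NK cell markers (4 of 13 present) summed to 17.4 to 222 CPM and the 1 B cell marker present of 8 to 1.78 to 80 CPM. In healthy cows with low PMN, 4 of the 5 libraries (cows Healthy_1340, Healthy_2006, Healthy_2224 and Healthy_2570) stood apart from the fifth, cow Healthy_1890: their macrophage sums were 222 to 456 CPM against 3415 CPM, and their stromal sums were 111 to 9217 CPM against 18519 CPM. The CCL2 differences of this group from healthy cows with high PMN and CYTO cows with low PMN are also given without cow Healthy_1890. So are the CCL8 difference between the healthy groups and the interactions of CCL2, CCL5 and CCL20. These were the member differences that did not pass in limma with all cows and passed without that cow. Most other results that rest on this group are given with all its cows.

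The members varied among themselves in how far they ranged between cows. The SD of log2(CPM + 1) over the 27 cows was 2.50 for CCL2, 2.13 for CCL20, 1.96 for CCL5 and 1.88 for CCL8, against a median of 0.58 over all genes. CXCL10 had an SD of 1.26. CXCL16 had an SD of 0.45, below that median, and its highest value was 3.64-fold its lowest. CCL20 was below 1 CPM in 16 of the 27 cows and reached 248 CPM in another.

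**Figure D1:**
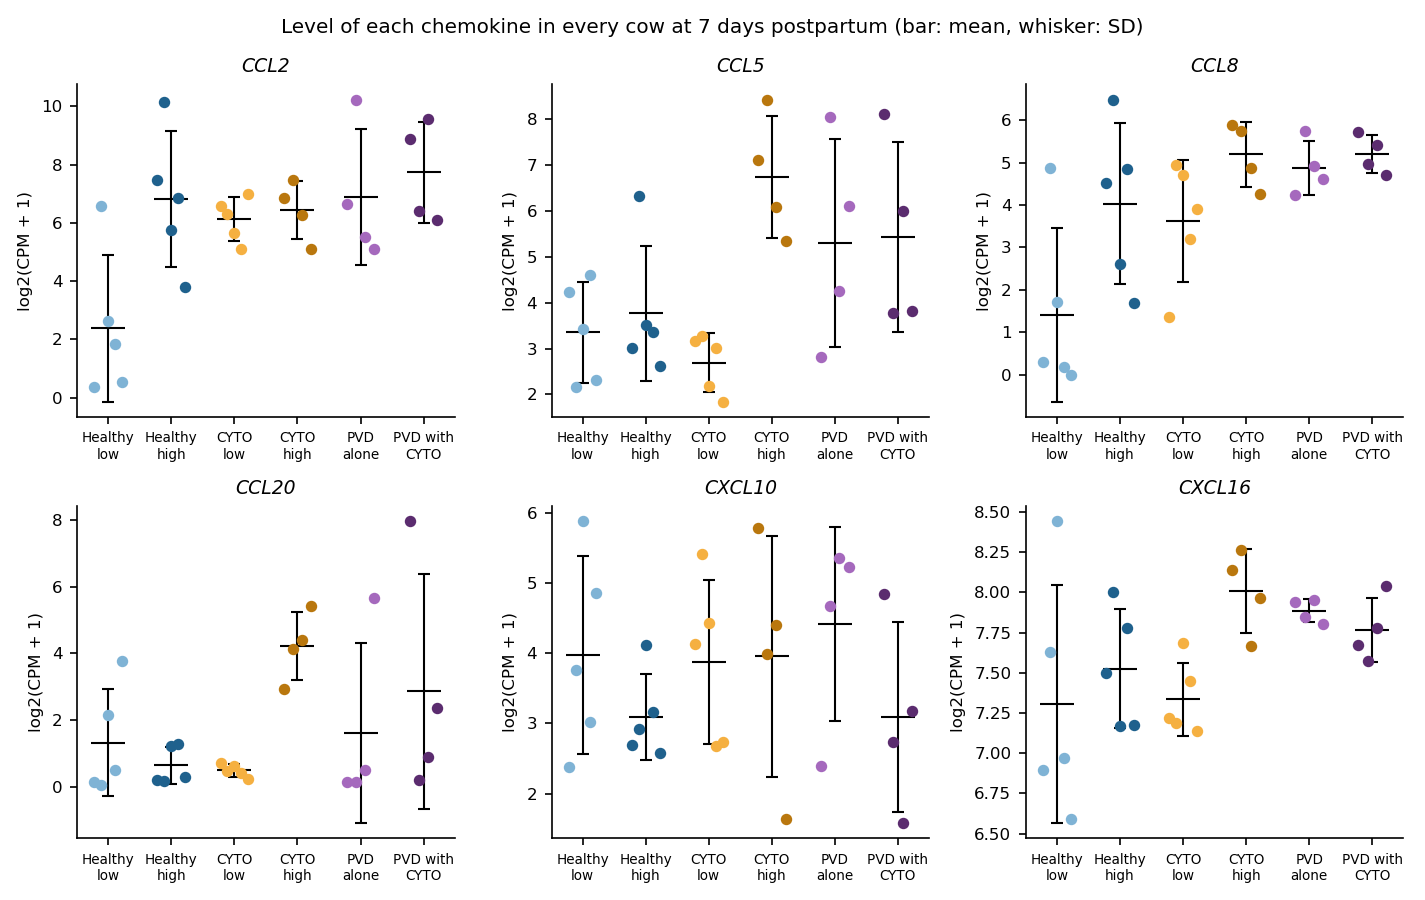
Level of the 6 chemokines in each of 27 cows, as log2(CPM + 1), by group at 7 DPP (points: cows; bar: mean; whisker: SD; n = 4 or 5). CCL20 in the 4 CYTO cows with high PMN lies above all 5 healthy cows with high PMN and all 5 CYTO cows with low PMN, and 4 of the 5 healthy cows with low PMN lie below every other cow for CCL2.

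CCL20 and CCL5 were high in cows with high PMN which went on to CYTO, above CYTO cows with low PMN for both genes and above healthy cows with high PMN for CCL20. Each gene was tested with limma on log2(CPM + 1) across all genes with enough reads. A call needed an adjusted p (Benjamini-Hochberg) under 0.05 together with a log2 fold change beyond 1. The added 1 CPM makes the fold of a gene with few reads smaller than it is.

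CCL20 read 6.63 CPM in cow Sub-clinical_1944, 16.4 in cow Sub-clinical_2039, 20.3 in cow Sub-clinical_2064 and 41.8 in cow Sub-clinical_2184, the 4 CYTO cows with high PMN. In the 5 healthy cows with high PMN it read 0.134, 0.170, 0.240, 1.34 and 1.46 CPM. The lowest of the first group lay above the highest of the second, and these healthy values rest on 2 to 27 reads per library. In the 5 CYTO cows with low PMN, CCL20 read 0.182, 0.349, 0.397, 0.543 and 0.648 CPM, again with no overlap. Healthy cows with low PMN read 0.0375, 0.118, 0.425, 3.47 and 12.6 CPM, so cow Healthy_2570 of that group reached the range of the CYTO cows with high PMN.

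CCL20 was higher in CYTO with high PMN than in healthy cows with high PMN by 3.57 on the log2 scale (SE 0.50, adjusted p = 0.0175), with all 4 CYTO cows above the healthy mean. The exact permutation test over these 9 cows gave p = 0.00794, the smallest that 126 splits allow. CCL20 was the 1 member of 6 called in this comparison, where 0.412% of 10432 genes were called, all of them higher, and 1.41% of genes were higher with no overlap. The call did not hold under every setting. It was lost when cow Healthy_1066, Sub-clinical_2039, Sub-clinical_2064, Sub-clinical_2184 or Healthy_2392 was left out (adjusted p 0.0503 to 0.108), while the log2 fold change stayed between 3.172 and 4.001 over all 9 omissions. edgeR gave 5.16 with an adjusted p of 0.0615 and called 0 members and 0.134% of genes. DESeq2 gave 5.15 with 1.6e-08 and called CCL20 alone of the members and 1.23% of genes. A single limma fit of all 27 cows, whose spread includes the PVD cows, gave an adjusted p of 0.906 and called 0% of genes.

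Against CYTO cows with low PMN, CCL20 rose in CYTO cows with high PMN by 3.72 on the log2 scale (SE 0.46, adjusted p = 0.00182), and the exact permutation test again gave p = 0.00794, the smallest allowed. The filter asked for 1 CPM in 4 cows, and CCL20 reached that level only in the CYTO cows with high PMN. It thus entered this test through the group where it was high, so its call here is a description and not independent support. CCL5 rose in the same comparison by 4.05 (SE 0.59, adjusted p = 0.00353; exact permutation p = 0.00794). These were the 2 members of 6 called there, in a comparison in which 8.72% of 10443 genes were called, 5.31% as higher. Both calls held in all 9 fits with a cow left out, where the largest adjusted p was 0.00952 for CCL20 and 0.0123 for CCL5, and in edgeR and DESeq2, which called 8.54% and 11.5% of genes. In the single fit of 27 cows, with 0.296% of genes called, neither passed (adjusted p = 0.126 for CCL20 and 0.0576 for CCL5). Of all genes tested, 6.95% had groups that did not overlap with the CYTO cows with high PMN above. The 9 neutrophil markers moved with both genes in this comparison. Their sum was 4219 to 7127 CPM in CYTO with high PMN and 309 to 745 CPM in CYTO with low PMN. In healthy cows with high PMN it was 235, 710, 854 and 2134 CPM, and 5782 CPM in cow Healthy_1570. Apart from that cow, they thus lay below the CYTO cows with high PMN. The 2 dendritic cell markers summed to 22.7 to 49.1 CPM in CYTO with high PMN, 1.76 to 19.9 CPM in CYTO with low PMN and 11.6 to 22.5 CPM in healthy cows with high PMN. The lowest of the first group thus lay just above the highest of the last. Cow Healthy_1890 had 30.1 CPM of these markers and cow Clinical_1239 had 197 CPM. The part of either list in the differences was not tested.

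CCL5 read 39.7, 66.5, 137 and 343 CPM in the CYTO cows with high PMN and 2.58, 3.51, 7.02, 8.02 and 8.61 CPM in those with low PMN. The groups were separated by a wide gap. In healthy cows with high PMN it read 5.18, 7.11, 9.26 and 10.5 CPM in 4 cows and 79.2 CPM in cow Healthy_1570, which overlapped the CYTO cows. The difference from CYTO with high PMN was 2.97 on the log2 scale (SE 0.80, exact permutation p = 0.0317) and did not pass the adjusted test (adjusted p = 0.270). Without cow Healthy_1570, the cow that overlapped, it was 3.61 and passed (adjusted p = 0.0152), in a fit that called 1.36% of genes. With any other cow left out it did not pass (limma adjusted p 0.3345 to 0.7633). Healthy cows with low PMN read 3.49, 3.96, 9.77, 17.8 and 23.4 CPM of CCL5, all below the CYTO cows with high PMN.

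Whether the CYTO difference depended on PMN was tested as an interaction, the difference between CYTO and healthy cows at high PMN minus the same at low PMN. For CCL20 it was 4.40 on the log2 scale (SE 0.93, adjusted p = 0.0842) and for CCL5 3.63 (SE 1.01, adjusted p = 0.246), so 0 of 6 members were called by limma, where 0.0764% of 10471 genes were. At an unadjusted p under 0.05 there were 3 members (CCL2, CCL5 and CCL20) and 16.2% of genes. edgeR called 0 members, and DESeq2 called CCL20 alone, at 8.44 with an adjusted p of 2.7e-05, where it called 0.898% of genes. CCL20 and CCL5 passed in limma without cow Healthy_1570 (adjusted p = 0.0400 and 0.0251, with 1.17% of genes called). Without cow Healthy_1890 they passed as well (0.0146 and 0.0370), as did CCL2 in the opposite direction (-5.16, adjusted p = 0.0341), with 5.55% of genes called. In the other 17 of 19 fits with a cow left out, neither CCL20 nor CCL5 passed (limma adjusted p up to 0.2635 and 0.4481). CCL2 did not pass in the other 18 (up to 0.4581). With all cows the interaction of CCL2 was -4.12 (SE 1.61, adjusted p = 0.272).

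**Figure D2:**
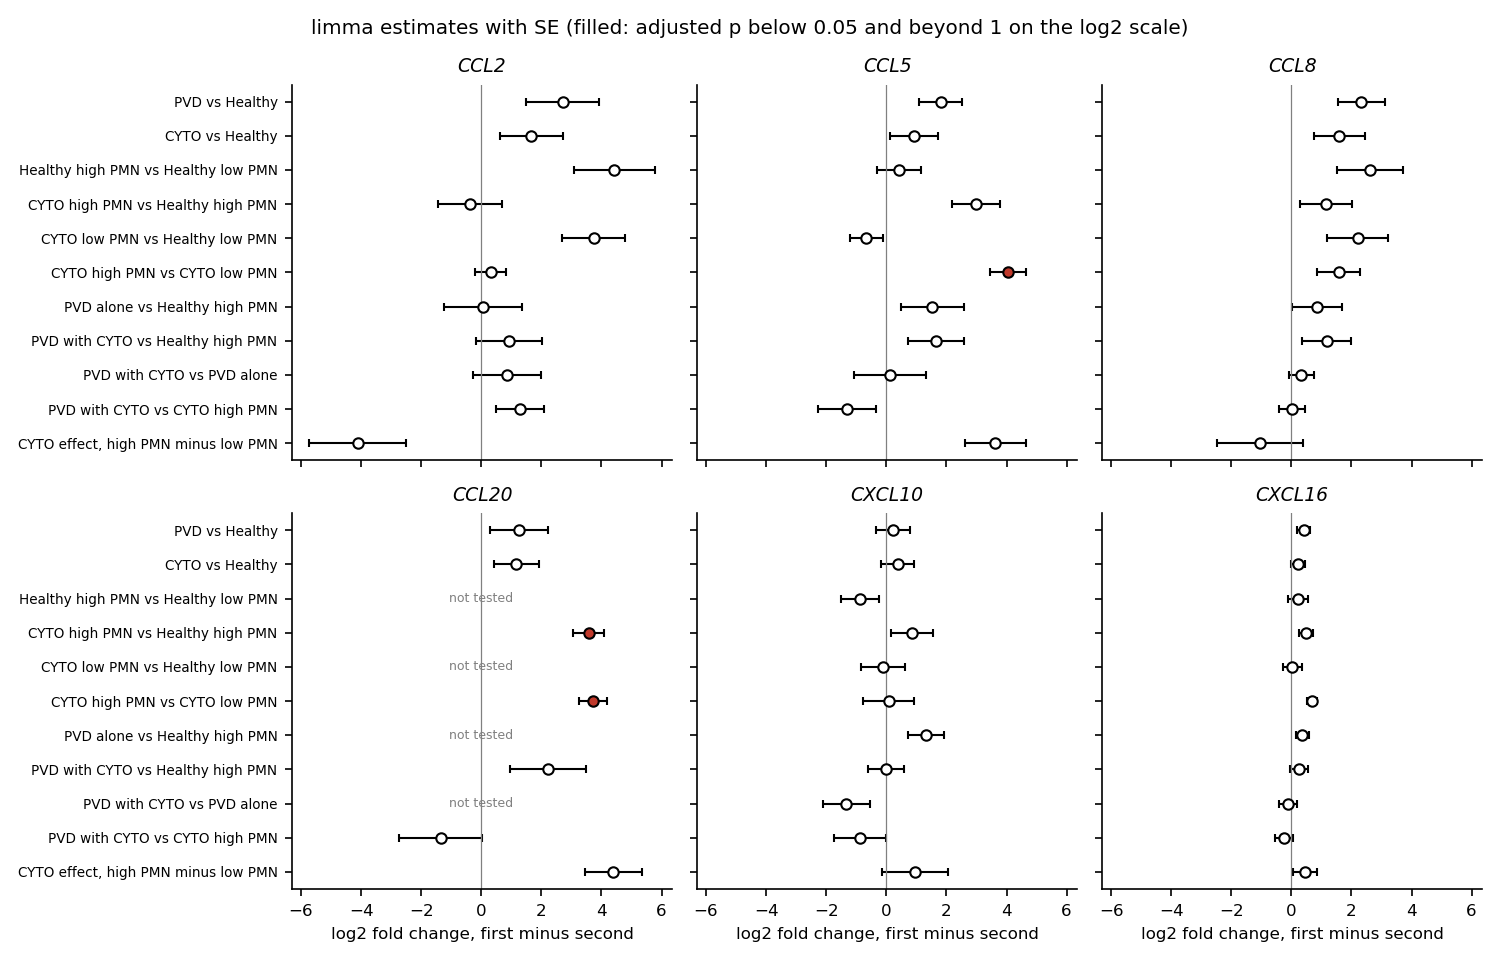
log2 fold changes of the 6 chemokines in 11 comparisons, each point a limma estimate with its SE, on log2(CPM + 1). The 3 filled points are those called. They are CCL20 in CYTO with high PMN against healthy with high PMN, and CCL20 and CCL5 in CYTO with high PMN against CYTO with low PMN. CCL20 was not tested in 4 comparisons for its low level.

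In the cows which developed PVD, CCL20 and CCL5 were scattered. CCL20 read 0.109, 0.109, 0.434 and 49.7 CPM in PVD alone and 0.158, 0.873, 4.20 and 248 CPM in PVD with CYTO. Cow Clinical_2683 held the high value of the first group and cow Clinical_1239 that of the second, and 5 of the 8 cows lay below 1 CPM. CCL5 read 6.07, 18.01, 67.7 and 263 CPM in PVD alone and 12.7, 13.1, 63.2 and 275 CPM in PVD with CYTO. The highest were cow Clinical_2520 and cow Clinical_1239. In the library of cow Clinical_1239 the TMM scaling factor was 0.448, against 0.824 to 1.16 in the other cows, so its values would be higher after scaling.

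Of the monocyte chemokines CCL2 and CCL8, CCL2 lay lower in the healthy cows with low PMN, apart from cow Healthy_1890, than in every other cow. CCL8 was low in the same cows but overlapped cows of other groups. CCL2 read 0.274 CPM in cow Healthy_1340, 0.436 in cow Healthy_2570, 2.59 in cow Healthy_2224 and 5.25 in cow Healthy_2006, and 94.1 CPM in cow Healthy_1890. In the other 22 cows it was between 12.9 and 1204 CPM. Healthy cows with high PMN read 12.9, 53.3, 114, 179 and 1148 CPM, and CYTO cows with low PMN read 33.1, 49.5, 77.7, 95.9 and 127 CPM. The latter overlapped the healthy cows with low PMN only through cow Healthy_1890.

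The difference in CCL2 between healthy cows with high and low PMN was 4.43 on the log2 scale (SE 1.34, exact permutation p = 0.0238) and did not pass (adjusted p = 0.111). CYTO against healthy cows, both with low PMN, gave 3.74 (SE 1.05, exact permutation p = 0.0317, adjusted p = 0.365). limma called 0 members and 0% of genes in either comparison. At an unadjusted p under 0.05 there were 2 of 5 members (CCL2 and CCL8) in the first, against 25.8% of all genes, and 1 of 5 (CCL2) in the second, against 13.6%. edgeR called 0 members in both. DESeq2 called CCL2 in the first (4.01, adjusted p = 0.0335, with 8.39% of genes called) and 0 members in the second, with 0.374% of genes called.

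Without cow Healthy_1890, CCL2 was higher by 5.47 in healthy cows with high PMN than in those with low PMN (adjusted p = 0.00577), and it passed against CYTO with low PMN as well (4.79, adjusted p = 0.0259). These fits called 20.6% and 3.58% of all genes. The single fit of 27 cows also called CCL2 between the healthy groups (adjusted p = 0.0164), with 13.2% of genes.

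CCL8 followed the same cows. It read 0, 0.127, 0.235 and 2.26 CPM in 4 healthy cows with low PMN and 28.1 CPM in cow Healthy_1890, and the library at 0 (cow Healthy_2570) had 10 reads of CCL2. Healthy cows with high PMN read 2.21, 5.12, 21.8, 28.0 and 88.4 CPM, and CYTO cows with low PMN 1.57, 8.15, 13.9, 24.9 and 29.9 CPM. Cow Sub-clinical_1183, with the 1.57 CPM, had 95.9 CPM of CCL2, so the genes were not low together in every cow. The difference between the healthy groups was 2.62 (SE 1.11, exact permutation p = 0.0952, adjusted p = 0.171), and 3.48 without cow Healthy_1890 (adjusted p = 0.0193). For CYTO against healthy cows, both with low PMN, CCL8 gave 2.21 (SE 1.01, exact permutation p = 0.103, adjusted p = 0.366). That difference did not pass with any single cow left out (limma adjusted p 0.0505 or more).

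Macrophage and monocyte marker sums were low in the 4 healthy cows low in both genes, but did not follow the genes in every cow. Cow Sub-clinical_1183 had a low sum with 95.9 CPM of CCL2. Cow Healthy_2392 had a sum of 3646 CPM with 12.9 CPM of CCL2 and 2.21 CPM of CCL8. In cows Healthy_1340, Healthy_2006, Healthy_2224 and Healthy_2570 the 11 markers summed to 456, 320.5, 222 and 437 CPM, and in cow Sub-clinical_1183 to 555 CPM, while every other cow lay between 1544 and 6684 CPM. Endothelial markers (5 of 7 present) divided the same cows, with sums of 17.6 to 69.2 CPM in those 5 cows and 123 CPM or more in every other. The 2 dendritic cell markers present, of 7 listed, did so too, with sums of 1.14 to 1.996 CPM against 11.1 CPM or more. The part of these markers in the CCL2 and CCL8 differences was not tested. Epithelial sums went the other way, with 2643 to 4866 CPM in those 4 healthy cows, 3995 CPM in cow Sub-clinical_1183 and less in each of the rest, 379 CPM at the lowest. In an unsorted brush, fewer cells of a type and less RNA per cell cannot be told apart.

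**Figure D3:**
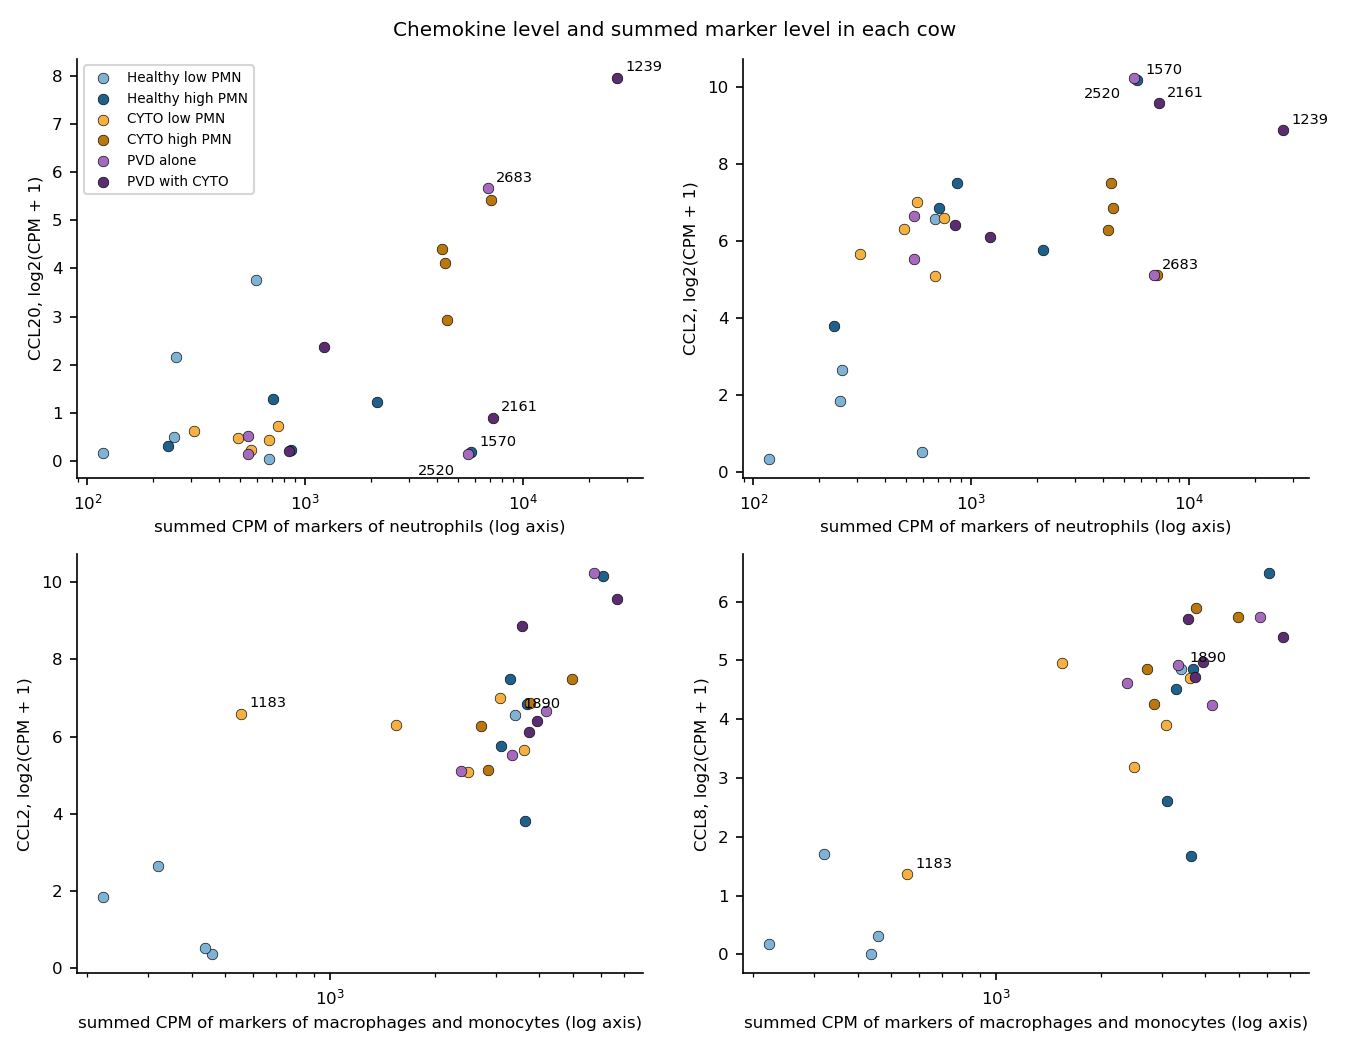
CCL20 and CCL2 against the summed CPM of neutrophil markers (top), and CCL2 and CCL8 against that of macrophage and monocyte markers (bottom), 1 point per cow (27 cows; horizontal axes logarithmic, vertical axes log2(CPM + 1); some points carry the cow's number). Cows Healthy_1570, Clinical_2520 and Clinical_2161 have high neutrophil sums with CCL20 below 1 CPM and the 3 highest values of CCL2, and 4 healthy cows with low PMN lie at the lower left of both bottom panels.

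Across the groups with high PMN, neither CCL2 nor CCL8 set disease apart. CCL2 read 33.8, 76.9, 115 and 179 CPM in CYTO with high PMN, within the range of the healthy cows with high PMN (difference -0.37, SE 1.06, adjusted p = 0.9999). CCL2 read 33.4, 44.9, 99.7 and 1204 CPM in PVD alone and 68.0, 84.0, 468 and 756 CPM in PVD with CYTO. CCL8 read 18.2, 28.1, 52.4 and 58.4 CPM in CYTO with high PMN, 17.9, 23.5, 29.5 and 52.3 CPM in PVD alone, and 25.2, 30.5, 41.3 and 51.5 CPM in PVD with CYTO. None of these 12 cows was below 17.9 CPM, whereas 2 of the 5 healthy cows with high PMN were. Against those healthy cows, the log2 differences in CCL8 were 1.16 (SE 0.86) for CYTO with high PMN, 0.85 (SE 0.84) for PVD alone and 1.17 (SE 0.80) for PVD with CYTO, with adjusted p of 0.9999, 0.99998 and 0.697.

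CXCL16, the membrane-bound ligand of CXCR6, was the steadiest member. It read 202, 249, 282 and 307 CPM in CYTO with high PMN against 140, 145, 148, 173 and 204 CPM in CYTO with low PMN, where cow Sub-clinical_2178 of the second group lay just above the lowest of the first. The difference was 0.67 on the log2 scale (SE 0.17, adjusted p = 0.0202, exact permutation p = 0.0238), so it passed on p and stayed below the fold limit. Healthy cows read 95.5, 118, 124, 197 and 347 CPM with low PMN and 143, 144, 180, 219 and 256 CPM with high PMN. PVD alone was the tightest group, at 222, 229, 244 and 247 CPM, and PVD with CYTO read 189, 203, 219 and 262 CPM. The largest CXCL16 difference in the other 10 comparisons was 0.48 on the log2 scale, and all had adjusted p of 0.263 or more. TMM scaling moved the median of all genes by -0.20 to 0.34 over the comparisons, and the sign for CXCL16 turned with TMM and RLE in CYTO against healthy with low PMN and in PVD with CYTO against PVD alone and against CYTO with high PMN.

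CXCL10, the interferon-induced ligand of CXCR3, did not order the groups. It read 4.20, 7.09, 12.5, 28.0 and 58.0 CPM in healthy cows with low PMN and 4.99, 5.45, 6.59, 7.96 and 16.4 CPM in those with high PMN. CYTO cows read 5.40, 5.67, 16.6, 20.5 and 41.5 CPM with low PMN and 2.11, 14.8, 20.2 and 53.9 CPM with high PMN. Values spanned 4.24, 24.5, 36.5 and 39.8 CPM in PVD alone and 1.98, 5.68, 8.06 and 27.7 CPM in PVD with CYTO. Every group overlapped every other. The largest log2 differences were 1.32 (SE 0.59, adjusted p = 0.99998) for PVD alone against healthy cows with high PMN and -1.33 (SE 0.79, adjusted p = 0.944) for PVD with CYTO against PVD alone, and neither passed.

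Ordered by mean log2(CPM + 1), CYTO with high PMN stood first for CCL5, CCL20 and CXCL16, PVD with CYTO first for CCL2 and CCL8, and PVD alone first for CXCL10. Healthy cows with low PMN stood last for CCL2, CCL8 and CXCL16, and CYTO with low PMN last for CCL5 and CCL20. For each of the 6 genes, all neighbours in that order overlapped.

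In the broad comparisons of disease outcome, which share the 10 healthy cows, no member was called by limma. For PVD against healthy cows, CCL2 was 2.71 higher on the log2 scale (SE 1.21, adjusted p = 0.215), CCL8 2.32 (SE 0.78, adjusted p = 0.195) and CCL5 1.81 (SE 0.71, adjusted p = 0.202). The exact permutation p was 0.0576, 0.0168 and 0.0331. CCL8 ranged from 17.9 to 52.3 CPM in PVD (median 29.96) and from 0 to 88.4 CPM in healthy cows (median 3.69), so all PVD cows lay within the healthy range. limma called 0 of 6 members and 0% of genes here, and 3 of 6 members and 21.3% of genes had an unadjusted p under 0.05. DESeq2 called CCL5 (2.98, adjusted p = 0.00781) and CCL20 (3.41, adjusted p = 0.0261), with 6.7% of genes called. The single fit of 27 cows called CCL2 (adjusted p = 0.0441) and CCL8 (adjusted p = 0.0299), with 5.79% of genes called, and edgeR called 0.

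For CYTO against healthy cows, the 6 log2 fold changes ran from 0.22 to 1.67 with a common adjusted p of 0.986. limma called 0 members and 0% of genes, and 0 members had an unadjusted p under 0.05 (2.06% of genes did). edgeR and DESeq2 called 0 members, with 0% and 0.22% of genes called. CCL5 was divided within CYTO, from 2.58 to 343 CPM (median 8.61), against 3.49 to 79.2 CPM in healthy cows (median 9.51). For CCL2 the sign depended on the tool, with 1.67 in limma and -0.99 in edgeR, and the mean CPM of healthy cows, 161, includes cow Healthy_1570 at 1148 CPM.

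Among PVD cows and cows with high PMN, limma called 0 members and 0% of genes for PVD alone against healthy, PVD with CYTO against healthy, PVD with CYTO against PVD alone, and PVD with CYTO against CYTO. At an unadjusted p under 0.05 there was 1 of 5 members in the first, CXCL10, against 0.71% of genes. There were 0 in the other 3, against 1.63%, 0.115% and 1.29% of genes, and edgeR and DESeq2 called 0 members in all 4. DESeq2 called 0.0959% of genes in the second and 0% in the others, and gave no adjusted p for CCL2 in the first or for CCL20 in the second and the last. The median log2 fold change of the members tested was 0.85, 1.05, 0.12 and -0.56 in these comparisons, beside -0.07, -0.36, -0.27 and -0.28 over all genes.

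The cows with extreme values were not the same for all members. Cow Healthy_1570 (healthy, high PMN), cow Clinical_2520 (PVD alone) and cow Clinical_2161 (PVD with CYTO) had the 3 highest values of CCL2, at 1148, 1204 and 756 CPM. Their CCL20 was 0.134, 0.109 and 0.873 CPM, or 2, 2 and 22 reads. Cows Clinical_1239 and Clinical_2683 had the 2 highest values of CCL20, with 468 and 33.4 CPM of CCL2. All 5 had high summed neutrophil markers, with 5782, 5593, 7251, 26853 and 6854 CPM in the order named, compared with 4219 to 7127 CPM in the 4 CYTO cows with high PMN. Among these 5 cows, named for their extreme values, a high neutrophil sum came both with high and with low CCL20. The part of neutrophils in the CCL20 level was not tested. The highest macrophage sums of the 27 cows were those of cows Clinical_2161, Healthy_1570 and Clinical_2520, at 6684, 6101 and 5742 CPM.

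Other chemokines of mononuclear cells, from a list of 19 names of which 7 had an entry, partly shared these patterns. CCL24, a ligand of CCR3 on eosinophils, read 228, 145 and 108 CPM in cows Healthy_1570, Clinical_2520 and Clinical_2161 and 37.9 CPM or less in the other 24. CCL22, a ligand of CCR4 on T cells, read 72.8, 29.6 and 48.8 CPM in those 3 cows. It was also higher in CYTO with high PMN (10.5, 13.8, 14.0 and 36.5 CPM) than in CYTO with low PMN (2.57, 2.84, 3.41, 4.29 and 6.04 CPM), by 1.91 on the log2 scale (SE 0.37, adjusted p = 0.00891). It was the 1 of 7 called there, beside 8.72% of all genes. CCL16 was highest in cow Clinical_1239 (239.9 CPM) and cow Clinical_2683 (56.8 CPM), the cows highest in CCL20.

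Between healthy cows with high and low PMN, all 7 of these chemokines had higher means of log2(CPM + 1) at high PMN, and limma called 0. The median log2 fold change was 2.43 beside 0.14 over all genes. The mean CPM of CXCL9 went the other way, at 4.05 with high PMN and 9.25 with low PMN. At an unadjusted p under 0.05 there were 4 of 7, beside 25.8% of all genes. DESeq2 called CCL16 and CX3CL1, beside 8.39% of genes, the single fit of 27 cows called CCL14, CCL16 and CX3CL1, beside 13.2%, and edgeR called 0. CXCL14, which epithelium and stroma make, had the highest mean of the list. It read 2.61, 5.06 and 9.68 CPM in cows Healthy_2570, Healthy_1340 and Healthy_2224, 206 CPM in cow Healthy_2006 and 877 CPM in cow Healthy_1890.

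Among the receptors, CXCR4, CXCR6 and CX3CR1 are described here, and limma called none of these in any of the 11 comparisons. CXCR4, the receptor of CXCL12, read 145, 209, 223 and 299 CPM in CYTO with high PMN and 64.3, 95.2, 122, 138 and 183 CPM in CYTO with low PMN (log2 difference 0.90, adjusted p = 0.0608). There edgeR called CXCR4 and DESeq2 called CXCR4 and CX3CR1, beside 8.54% and 11.5% of all genes. Both had an unadjusted p under 0.05 in limma, as did 40.2% of genes. CXCR6, the receptor of CXCL16, was highest in cow Clinical_2520 at 54.1 CPM.

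Scavenging and presenting receptors and processing enzymes had 6 of 10 names present. In CYTO with high against low PMN, limma called CCRL2 (1.78, SE 0.35, adjusted p = 0.0103), a receptor that presents the chemoattractant chemerin, and SDC4 (1.34, SE 0.27, adjusted p = 0.0105), a heparan sulfate proteoglycan that holds chemokines on the cell surface. These were 2 of the 6, beside 8.72% of all genes called and 5.31% called as higher. CCRL2 read 18.3, 18.7, 23.2 and 65.3 CPM against 5.23, 7.18, 7.54, 7.74 and 8.27 CPM. In PVD alone it read 4.57, 6.38, 18.1 and 44.4 CPM, highest in cow Clinical_2683. In PVD with CYTO it read 4.66, 14.1, 25.4 and 144 CPM, highest in cow Clinical_1239. The 25.4 and 18.1 CPM were those of cows Clinical_2161 and Clinical_2520, whose CCL20 was below 1 CPM. Healthy cows with high PMN read 4.21 to 9.73 CPM of CCRL2. For CYTO against healthy with high PMN, DESeq2 called CCRL2 and SDC4, beside 1.23% of all genes. DESeq2 also called both in the interaction, beside 0.898% of genes, and CCRL2 in PVD against healthy cows, beside 6.7%. limma and edgeR called 0 of the 6 in each of these. ADAM10 and ADAM17, the proteases that shed CXCL16 and CX3CL1, were not called in any comparison fitted on its own cows. The single fit of 27 cows called ADAM17 between the healthy groups, where the fit of those cows alone gave 1.08 (SE 0.35, adjusted p = 0.119). ADAM10 ranged from 56.3 to 165 CPM over the 27 cows and ADAM17 from 29.0 to 151 CPM.

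**Figure D4:**
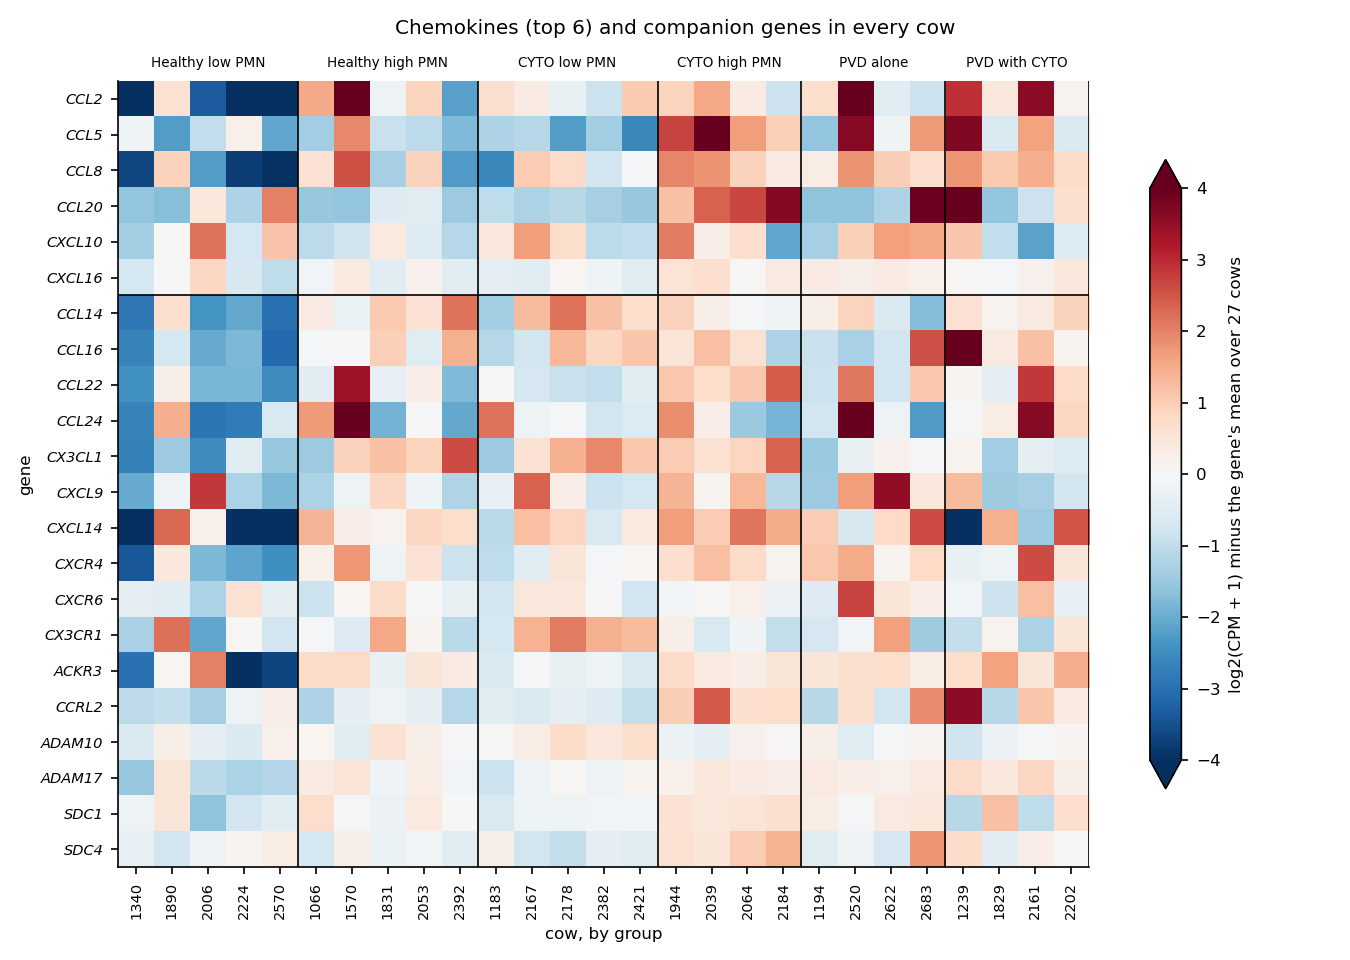
log2(CPM + 1) minus each gene's mean over 27 cows (colour, with values beyond 4 in size drawn at the limit) for the 6 chemokines above the line and 16 companion genes below it, with cows in columns by group. CCL20 and CCRL2 are high in the CYTO cows with high PMN and in cows Clinical_1239 and Clinical_2683, and CCRL2 also in cow Clinical_2161. CCL2, CCL22 and CCL24 are high in cows Healthy_1570, Clinical_2520 and Clinical_2161.

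The genes most like each member over the 27 cows are given as a description, with Pearson r of log2(CPM + 1), and cows of a group share their diagnosis and mixture of cells. CCL20 was most like Mail (r = 0.92), CSF3 (0.92), the growth factor of neutrophils, and GPR84 (0.92). By rank of the cows (Spearman rho), the likeness was 0.88 for Mail, 0.71 for CSF3 and 0.64 for GPR84. CCL5 was most like ISG20 (0.92), HSH2D (0.90) and CISH (0.89). CCL2 was most like MYO1G (0.92) and CYBB (0.91), the latter a part of the phagocyte oxidase. The genes close to CCL8 included CXorf21 (0.94) and the endothelial marker PECAM1 (0.93). CXCL10 was most like CXCL9 (0.80) and IDO1 (0.71), which are interferon-induced genes, and RHBDD1 (0.59), and CXCL16 like SQSTM1, SUSD3 and NOS2 (0.82 each). Among the members, CCL2 and CCL8 were the closest pair (r = 0.85), and CCL2 and CCL20 had an r of 0.00.

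**Figure D5:**
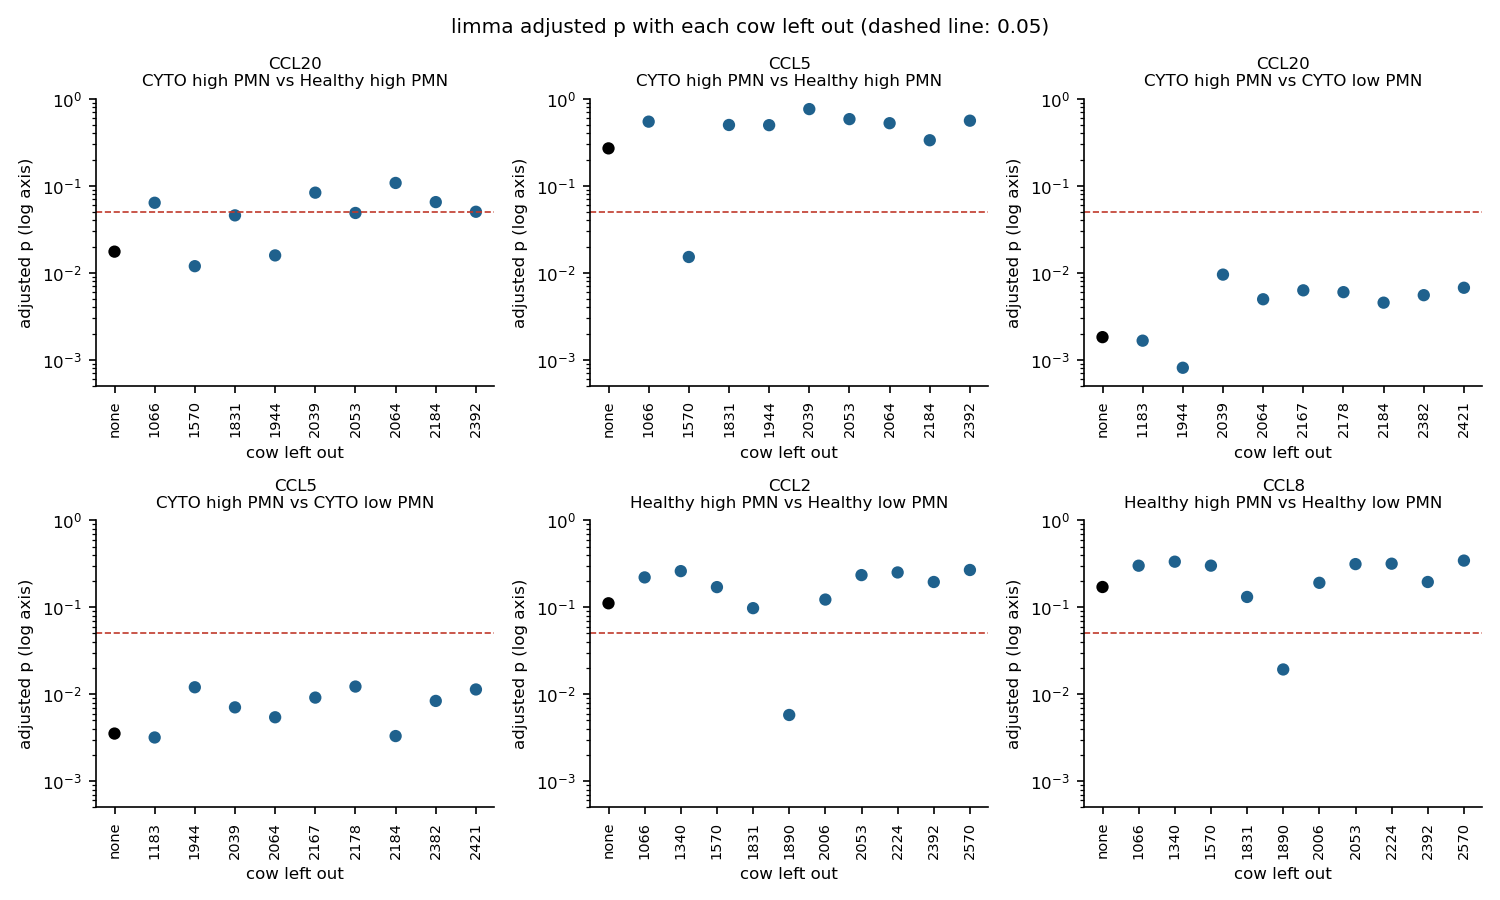
Adjusted p (limma, logarithmic axis) of 6 differences with all cows (black) and with each cow left out (blue), and the threshold of 0.05 (dashed). CCL20 and CCL5 stay below the line in CYTO with high against low PMN, CCL5 passes against healthy cows with high PMN without cow Healthy_1570 alone, and CCL2 and CCL8 pass between the healthy groups without cow Healthy_1890 alone.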

How the data were processed

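The authors sequenced stranded polyadenylated RNA of 30 brushes as 100 bp single-end reads in 5 pools of 6 (the pool of each library is not given in the sources used here). They trimmed reads with BBDuk, aligned them with STAR to UMD3.1 with at most 2 mismatches, kept uniquely mapped reads, counted them with featureCounts over Ensembl protein coding genes, and kept genes with at least 1 CPM in 5 libraries. The deposited values are CPM that the authors computed without a scaling factor. The other columns hold the authors' comparisons (log2 fold changes, likelihood ratios and their p-values) and were not used. The submitters' processing notes name R 3.3.2 and edgeR 3.18.0.

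PMN class and PVD with or without CYTO came from the study's classification by cow number. All 54 entries of the study's cows in the 6 deposited pairwise tables matched it. Of 314280 values, 100% were whole multiples of the value of 1 read within 0.01, so reads were recovered, although 13 libraries held too few low values to check this.

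Each of 11 comparisons was fitted with limma 3.58.1 (trended eBayes, R 4.3.3) on log2(CPM + 1), with only the cows compared, no covariate, and genes with at least 1 CPM in 5 cows (4 where the smaller group had 4). Single values were also tested with exact two-sided permutation tests. Alternatives were a pseudocount of 0.1, no filter, TMM and RLE scaling, edgeR 4.0.16 and DESeq2 1.42.0 on the recovered reads, all 27 cows in 1 fit, each cow left out, and the 3 other cows added. The fit was tested on simulated data. The text names all members, the companion genes that were called, up to 4 others per list by mean CPM, and the 3 genes most like each member, except for a few genes that are not reported here; CCL16, CCL24 and CXCR6 values of single cows were chosen after they were seen. The members and lists were chosen with earlier results of these data known. T and NK and B cell marker lists (4 of 13 and 1 of 8 present) were summed too. No promoter or protein sequence was used here.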

Additional observations from a re-analysis of the deposited data

Results flagged for a closer look

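Within groups of 4 or 5 cows, 36 combinations of gene and group were examined for a cow far from the others by Dixon's ratio, which chance exceeds in about 1 of 20 groups, and 2 stood out. CCL5 in cow Healthy_1570 read 79.2 CPM, while the other healthy cows with high PMN read 5.18 to 10.5 CPM. CCL20 in cow Clinical_2683 read 49.7 CPM, while the other cows with PVD alone read 0.109 to 0.434 CPM.

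The difference between CYTO and healthy cows went opposite ways at high and low PMN for CCL5 and CCL20, in that every CYTO cow with high PMN lay above the mean of its healthy group and every CYTO cow with low PMN lay below that of its own. At low PMN the differences were small beside their spread. CCL5 gave -0.66 on the log2 scale (limma adjusted p = 0.519). CCL20 gave -0.83 (exact permutation p = 0.421, too low for limma), with medians of 0.397 CPM in CYTO and 0.425 CPM in healthy cows, where cows Healthy_2006 and Healthy_2570 read 3.47 and 12.6 CPM. The tested interactions were 3.63 and 4.40 on the log2 scale, and neither passed with all cows (limma adjusted p = 0.246 and 0.0842).

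The 3 cows outside the study's set entered none of the group comparisons above. CCL20 read 59.6, 64.4 and 81.2 CPM in them, above the 12.6 CPM of the highest healthy cow and above 26 of the 27 cows of the set. CCL5 read 74.0, 78.7 and 229 CPM, and CCL2 19.1, 59.3 and 79.9 CPM. Their summed neutrophil markers were 11678 to 34845 CPM, and the part of these in the CCL20 level was not tested.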

How the results depend on the processing

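The comparison that held best was CYTO with high against low PMN, where CCL5 and CCL20 passed under each setting except the single fit of 27 cows. CCL20 met the filter there only through the CYTO cows with high PMN. Across all member values, leaving out 1 cow gave 685 values with direction and call kept, 32 with the sign turned, 9 newly past the threshold and 5 no longer past it. The other settings gave 412, 22, 8 and 4. CCL20 was below 1 CPM in 16 of 27 cows, and groups of 4 or 5 cows limit every comparison. No paired analysis was possible because each cow gave a single library to 1 group. The promoter motif search was not run.

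Against limma with all cows (0% of genes called unless stated), the share of genes called was 6.7% with DESeq2 and 5.79% in the single fit for PVD against healthy, and 0.22% with DESeq2 for CYTO against healthy. For healthy with high against low PMN it was 8.39% and 13.2%, for CYTO against healthy with low PMN 0.374% with DESeq2, and for PVD with CYTO against healthy with high PMN 0.0959% with DESeq2. For CYTO against healthy with high PMN (0.412%) it was 0.134% with edgeR, 1.23% with DESeq2 and 0% in the single fit, and for CYTO with high against low PMN (8.72%) 0.296% in the single fit. For the interaction (0.0764%) it was 0.0287% with a pseudocount of 0.1, 0.191% with TMM, 0.201% with RLE, 0% with edgeR, 0.898% with DESeq2 and 0% in the single fit. Members called were 2 with DESeq2 and 2 in the single fit for PVD against healthy, and 1 and 2 between the healthy groups. They were 0 with edgeR and 0 in the single fit for CYTO against healthy with high PMN (1 called), 0 in the single fit for CYTO with high against low PMN (2 called), and 1 with DESeq2 for the interaction.

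Signs turned as follows, and the cause was not tested. CXCL10 in PVD against healthy was -0.27 with the 3 outside cows, and CCL2 in CYTO against healthy was -0.99 with edgeR. With TMM, RLE, edgeR and DESeq2 in that order, CXCL16 in CYTO against healthy with low PMN was -0.18, -0.19, -0.30 and -0.29, and CXCL10 in PVD with CYTO against healthy with high PMN was 0.33, 0.36, 1.28 and 1.35. CXCL16 in PVD with CYTO was 0.18, 0.18, 0.21 and 0.29 against PVD alone, and 0.047, 0.081, 0.093 and 0.15 against CYTO with high PMN. In the latter comparison CCL5 was 0.18 and CCL20 2.58 with edgeR, and 0.33 and 2.74 with DESeq2.

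Leaving out 1 cow, genes called ranged from 0% to 0.0383% for PVD against healthy (highest without cow Healthy_1570), 0% to 20.6% between the healthy groups (highest without cow Healthy_1890), 0.0479% to 1.36% for CYTO against healthy with high PMN (highest without cow Healthy_1570), 0% to 3.58% with low PMN (highest without cow Healthy_1890), 5.3% to 11.3% for CYTO with high against low PMN (lowest without cow Sub-clinical_2039) and 0.0191% to 5.55% for the interaction (highest without cow Healthy_1890). Members called ranged from 0 to 2, 0 to 2, 0 to 1 and 0 to 3 between the healthy groups, for CYTO against healthy with high and with low PMN, and for the interaction. Log2 fold changes that crossed 0 ranged from -0.017 to 0.52 for CXCL10 in PVD against healthy, -0.22 to 0.73 for CCL5 between the healthy groups, and -1.13 to 0.46 for CCL2 in CYTO against healthy with high PMN. In CYTO against healthy with low PMN they were -0.50 to 0.37 for CXCL10 and -0.15 to 0.32 for CXCL16, and in CYTO with high against low PMN -0.039 to 0.75 for CCL2 and -0.53 to 0.85 for CXCL10. CCL2 ranged from -1.05 to 0.90 in PVD alone and CXCL10 from -0.60 to 0.49 in PVD with CYTO, both against healthy with high PMN. In PVD with CYTO, CCL5 ranged from -0.77 to 1.04 against PVD alone and CCL8 from -0.30 to 0.24 against CYTO with high PMN.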
